A study of Homo sapiens with 21 samples.

Results

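HNRNPK binds RNA through KH domains that recognize short runs of C. It shuttles between the nucleus and the cytoplasm, where it is known to act on the stability and translation of mRNAs, chiefly through their 3'UTRs. K19, the product of *KRT19*, is a keratin of epithelial intermediate filaments, and the study asked what its loss does to HNRNPK and the RNAs that HNRNPK binds in the cytoplasm.

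The values below describe HNRNPK binding to exons in the cytoplasm, compared between *KRT19* KO and parental MDA-MB-231 cells. MDA-MB-231 is an established human triple-negative breast cancer cell line, and the knockout was made in it with CRISPR/Cas9. Whether the knockout cells are 1 clone or a pool is not given in the sources used here. Both lines were labelled with 4-thiouridine and irradiated with ultraviolet light before fractionation, which leaves T-to-C changes in the reads where RNA touched protein, and HNRNPK was recovered with an anti-HNRNPK/J antibody (PAR-CLIP). Each line gave 1 cytoplasmic and 1 nuclear library. No difference between the lines therefore has a replicate check, no test was run, and genotype cannot be told apart from the preparation of each library.

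The unit of measurement was the cluster, a short stretch of RNA called from overlapping reads with T-to-C changes. Clusters in a 3'UTR, a coding sequence or a 5'UTR were taken as exonic, and each gene's exonic reads were divided by all exonic reads of that library to give its share. Of 9194 genes with an exonic cluster in either cytoplasmic library, 3237 had at least 200 exonic reads in both libraries together. A further requirement, a cluster of any kind in both nuclear libraries, left 3037 genes, out of 18322 genes with any cluster in the series. These 3037 genes held 89.0% of the exonic reads of the *KRT19* KO library and 89.6% of those of the parental library. At the threshold itself, *RORA* with 72 *KRT19* KO and 128 parental reads and *SMC3* with 179 and 21 were kept, whereas 7 genes with 199 reads, among them *DNM1L* with 48 and 151, were not.

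The libraries differed before any gene was considered. Exonic clusters held 55.9% of all cluster reads in *KRT19* KO cytoplasm and 34.3% in parental cytoplasm, against 10.2% and 8.28% in the corresponding nuclei. That gave 3476464 and 1906329 exonic reads in the cytoplasmic libraries, of which 47.1% and 33.6% were unique sequences. Exonic clusters of mitochondrial genes held 2.49% of the exonic reads of *KRT19* KO cytoplasm and 0.775% of those of parental cytoplasm. The nuclear RNAs *MALAT1*, *NEAT1* and *KCNQ1OT1* together made up 0.110% and 0.148% of all cluster reads in *KRT19* KO and parental cytoplasm and 0.181% and 0.172% in the nuclei, while *MEG3* had no cluster. The RNAs differed among themselves: *NEAT1* had 1267 and 1257 reads in *KRT19* KO and parental cytoplasm and 3551 and 2791 in the nuclei, whereas *MALAT1* had 5236 and 6825 in the cytoplasm and 1783 and 3140 in the nuclei. Clusters in introns held 23.03% of all cluster reads in *KRT19* KO cytoplasm and 42.35% in parental cytoplasm. In *KRT19* KO and parental nuclei they held 59.68% and 66.96%. The part of nuclear RNA in the cytoplasmic values was not tested. Of the 6 mesenchymal markers, all were detected in every library, with 8836 to 14790 reads in sum. Of 9 luminal epithelial markers, 5 or 6 were detected in each library, with 254 to 491 reads in sum, chiefly of *KRT8*, *KRT18* and *ESR1*, and *PGR* had no cluster in any. *KRT19* had 1 cluster outside exons in each cytoplasmic library, of 5 reads in *KRT19* KO and 7 in parental cells, which does not check the genotype.

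A part of the parental exonic signal could not be compared. In 111 stretches of the genome, covering 56.9 Mb, at least 10 consecutive clusters were listed by the parental cytoplasmic library alone, and the one with the most, at chr6:28541684-32948456 in the hg19 build, held 419 clusters. The same search found 3 to 7 stretches in each of the other libraries, none with more than 15 clusters. Among the 3037 genes, 16 had parental exonic reads in such a stretch, and 11 of these were at least 2-fold lower in *KRT19* KO cells and 0 were higher. With 10 mitochondrial genes, 1 gene on an unplaced contig and *MTRNR2L8*, a copy of a mitochondrial rRNA gene, 28 genes were set aside after these values had been seen, and 3009 genes remained.

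The sequences that carried the largest differences are printed here for 2 reasons, to show whether the C runs known for HNRNPK lie at the site and to locate each site. Each is at most 30 bases around the mode of one strong exonic site, read 5′ to 3′ on the RNA strand with T for U and with runs of at least 3 C in capitals. Coordinates are hg19, and all 64202 exonic clusters of the cytoplasmic libraries on reference chromosomes had the sequence of that build. The first set comes from genes with the highest lower interval bound of the ratio of *KRT19* KO to parental share, each from a 3'UTR.
*HIST1H2BD*, chr6:26158795-26158824, plus strand: tctttacacctaatCCCaaaggctctttta
*GCC2*, chr2:109125015-109125044, plus strand: tttCCCaaataaaaacctatcacaacagtg
*FADS2*, chr11:61633299-61633328, plus strand: ctttctcctctcctttttctcttcacatct
*HMGCS1*, chr5:43290860-43290889, minus strand: tactaatctccaattaaaaaattttttaac
The second set comes from 3'UTR sites of genes with the lowest upper interval bound, ranked after the 28 genes were set aside.
*EVI2A*, chr17:29644723-29644752, minus strand: tttctactattaatattaaattaaaacctt
*C9orf64*, chr9:86553519-86553548, minus strand: tttaatattttatttaaatttCCCaaaact
*EFEMP1*, chr2:56093315-56093344, minus strand: atttaaatcctaacacttcactaatttata
*COL4A1*, chr13:110802332-110802361, minus strand: tttcattcttgtattataattaattttcta
The third set holds the strongest sites of genes with the largest gain or loss of share, in 3'UTRs except for *HMGA1*, where the site is coding.
*PAWR*, chr12:79985465-79985494, minus strand: aaacaatatgtaagcagaaatagtactaaa
*NR3C1*, chr5:142660298-142660327, minus strand: tctaatatggcaaaaatggctagacaCCCa
*HMGA1*, chr6:34213226-34213255, plus strand: acgtggggctcacttttcatccttCCCCaa
*PHLDA1*, chr12:76420250-76420279, minus strand: tataccaaacactctgtatttctcttaaag
*GCLM*, chr1:94351147-94351176, minus strand: aacctatatttttcatcattaacttcctaa
*PRKAR1A*, chr17:66528259-66528288, plus strand: gttacaaattttttaatttccaaaataatc
The fourth set holds coding sites that both libraries list and that were higher in *KRT19* KO cells, chosen after their values were seen.
*EIF4G2*, chr11:10821178-10821207, minus strand: agcaaataaagttggatccatCCCCtcaaa
*ZEB2*, chr2:145156334-145156363, minus strand: cagtagttcatacactccaaacagcttctc
Of these windows, those of *HIST1H2BD*, *GCC2*, *C9orf64*, *NR3C1*, *HMGA1* and *EIF4G2* hold a run of at least 3 C and the others do not. Further windows chosen by the same rules were not printed. Those of *ZNF614*, *FERMT2*, *PXDN*, *DDAH1* and *LARP4* hold no such run, and that of *SEPT10* holds 1. The clusters of the printed sites are 37 to 120 bases long, so a run outside the 30 bases is not shown.

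Most genes kept a similar share in both lines, and the genes that did not were split between the directions. Over the 3037 genes, the median log2 ratio of shares, *KRT19* KO over parental, was 0.04, with quartiles of -0.65 and 0.84. A share at least 2-fold higher in *KRT19* KO cells was found for 666 genes (21.9% of those measured), and a share at least 2-fold lower for 485 (16%). Without the 28 genes set aside, the counts were 663 (22%) and 471 (15.7%) of 3009, and shares of the 2 libraries had a Spearman correlation of 0.68 across these genes, which are not independent replicates. Dividing by all cluster reads in place of exonic reads raised the median to 0.75 and gave 1244 higher and 184 lower genes, so the split between directions holds only for shares of exonic reads.

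**Figure D1:**
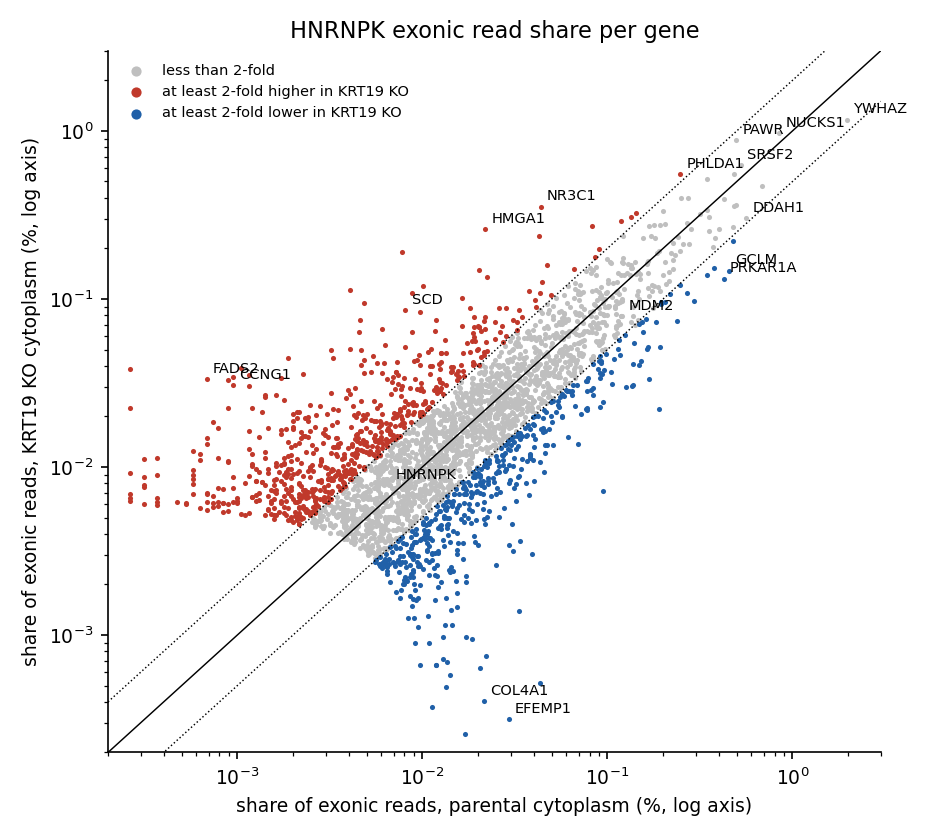
Share of exonic reads per gene in parental (x) and *KRT19* KO (y) cytoplasm, in percent on log axes, with 1 point for each of the genes with exonic clusters in both libraries after 28 genes were set aside. The solid line marks equal shares and the dotted lines a 2-fold difference. *YWHAZ* has the largest share in both libraries, and *NR3C1* and *HMGA1* lie far above the upper dotted line.

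The share of genes past 2-fold was also taken by depth. Among 525 genes with 200 to 300 reads, 49.5% differed at least 2-fold, and the median width of the 95% exact (Clopper-Pearson) interval of the log2 ratio was 0.82. Among 176 genes with at least 5000 reads, 19.9% did, with a median width of 0.14. Such intervals cover counting error only, because reads of the same molecule are not independent and other preparations of the same cells were not measured.

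The number of genes past 2-fold also depended on which reads were counted. Counting unique reads, reads with a T-to-C change, or reads outside the strongest cluster of each gene, in addition to all reads, left 424 genes (14.1%) at least 2-fold higher and 290 (9.64%) lower by all 4 counts. Of the 663 higher genes, 614 passed by unique reads, 551 by T-to-C reads and 504 without the strongest cluster, where 33 had the opposite sign. Of the 471 lower genes, 431, 402 and 336 passed by these counts, and 38 had the opposite sign without the strongest cluster.

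Among the genes with the largest shares in both libraries, 3 are described first. *YWHAZ*, which encodes a 14-3-3 adaptor protein, had 40525 exonic reads in *KRT19* KO cytoplasm and 37584 in parental cytoplasm, and 283 and 129 in the nuclei. Its share was 1.17% in *KRT19* KO and 1.97% in parental cytoplasm, a log2 ratio of -0.76 (95% interval -0.78 to -0.74), and this was the largest loss of share of any gene. *NUCKS1*, a chromatin-associated phosphoprotein, held 0.969% and 0.848% (log2 ratio 0.19), and *SRSF2*, a splicing factor, held 0.623% and 0.524% (0.25). None of these 3 genes differed by 2-fold, but the interval of *YWHAZ* lay well away from 0. That holds only for shares of exonic reads. Dividing by all cluster reads raises the ratio of every gene by the same amount, and the median over the 3037 genes rose from 0.04 to 0.75.

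In several genes with a large gain of share, single sites that the parental library did not list held many of the reads. *PAWR*, a pro-apoptotic regulator, had 30774 reads in *KRT19* KO cytoplasm and 9458 in parental cytoplasm, with 379 and 725 in the nuclei, and its share was 0.885% against 0.496%. 14554 of its *KRT19* KO reads lay in 1 site of 96 bases with no parental cytoplasmic cluster, although the parental nuclear library listed one there. *NR3C1*, the glucocorticoid receptor, had 12311 reads against 830, with 319 and 13 in the nuclei, a log2 ratio of 3.02 (2.92 to 3.13). Here 10200 *KRT19* KO reads lay in 1 such site of 104 bases, and without the strongest cluster in each library the ratio was 0.80. *HMGA1*, an architectural chromatin protein, had 9047 reads against 415, with 1355 and 602 in the nuclei, a log2 ratio of 3.58 (3.44 to 3.72), and 8869 of them came from 1 coding site. Without the strongest cluster its ratio was -1.08, and over 3'UTR clusters alone it was -3.03, so the gene's direction rested on that site. *PHLDA1*, also among the largest gains, had 84.0% of its *KRT19* KO reads in sites that both libraries list.

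The genes with the highest lower bound of the 95% interval had few parental reads for their *KRT19* KO reads. *HIST1H2BD*, a histone gene, had 1328 reads in *KRT19* KO cytoplasm, 5 in parental cytoplasm, and 0 and 36 in the nuclei (log2 ratio 7.19, 5.96 to 8.81). *FADS2*, a fatty acid desaturase, had 1158, 13, 172 and 9 reads in the same order, a log2 ratio of 5.61 (4.83 to 6.52). *HMGCS1*, an enzyme of cholesterol synthesis, had 1196, 18, 87 and 0 reads, a log2 ratio of 5.19. *CCNG1*, a cyclin, had 1063, 18, 17 and 6 reads, a log2 ratio of 5.02. For *FADS2* and *HMGCS1* the *KRT19* KO nuclear library also held more reads than the parental one, whereas *HIST1H2BD* went the other way. *GCC2*, *FERMT2*, *ZNF614*, *ATF1*, *DIDO1* and *RACGAP1* completed the 10 genes chosen by this bound, with log2 ratios between 4.63 and 6.42. *RACGAP1*, a regulator of cytokinesis, had 6618 reads against 147, but -3.17 without its strongest cluster, of 6598 reads.

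At the other end, 6 of the 10 genes with the lowest upper bound of the interval, namely *NOTCH2NL*, *CIRH1A*, *AP2B1*, *UBE4A*, *RAB5C* and *VPRBP*, had parental reads in the stretches listed by the parental library alone. The other 4 were *EVI2A* with 5 *KRT19* KO and 479 parental reads, *C9orf64* with 18 and 824, *EFEMP1* with 11 and 559, and *PXDN* with 9 and 323. *EFEMP1* encodes an extracellular matrix protein and *PXDN* a peroxidase that crosslinks collagen IV. Their log2 ratios were -6.53 and -6.03, and the nuclear reads were 27 and 62 for *EFEMP1* and 26 and 0 for *PXDN*. *COL4A1*, a collagen IV chain, had 14 reads against 408, with 43 and 52 in the nuclei, a log2 ratio of -5.73 (-6.62 to -4.97). *EFEMP1* was lower in both fractions, and the *COL4A1* nuclear interval, -1.07 to 0.16, included 0.

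Genes without an exonic cluster in a library have no fold, since the smallest listed cluster had 5 reads and a gene can have reads but no cluster. Outside the genes set aside, 7 genes had none in *KRT19* KO cytoplasm, led by *ASNA1* with 401 parental reads, *RSU1* with 383 and *LPXN* with 315. In parental cytoplasm 19 had none, led by *HOXB3* with 639 *KRT19* KO reads, *WBP5* with 574 and *CCDC91* with 424. For the counts past 2-fold, these genes were entered at 3 reads.

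Overlapping exonic clusters of the cytoplasmic libraries were next joined into 34918 sites, a step added after the gene values had been seen. Both libraries listed 9698 of them, and these shared sites held 71.9% of the *KRT19* KO reads and 85.7% of the parental reads. The *KRT19* KO library alone listed 16289 sites and the parental library alone 8931. Of sites with at least 200 reads, 752 in 642 genes were listed only in *KRT19* KO and held 15.7% of its reads, while 173 were listed only in parental cells and held 4.68%. A cluster of either nuclear library overlapped 487 of the 752 and 111 of the 173. Among shared sites it overlapped 1680 of 2239 with at least 200 *KRT19* KO reads and 1189 of 1506 with as many parental reads. The read cuts were not scaled to depth, which was 3476464 exonic reads in *KRT19* KO and 1906329 in parental cytoplasm. At 1000 reads or more, 103 sites were listed only in *KRT19* KO and 10 only in parental cells. The largest of the former, besides those above, were in *IL6ST*, a cytokine receptor subunit, with 10440 reads, in *MAPK1IP1L* with 7088 and in *SSR1*, a subunit of the translocon-associated complex, with 5885. The largest of the latter were in *CDC42*, a small GTPase, with 3237 reads, in *CKAP2* with 2114 and in *NT5E*, an ecto-nucleotidase, with 1974.

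Restricting the comparison to shared sites narrowed the distribution. Of 2194 genes with at least 200 reads in shared sites, 242 (11%) were at least 2-fold higher and 175 (7.98%) lower, where shares were taken of the reads in shared sites. The quartiles of the log2 ratio moved from -0.62 and 0.58 over all sites of these genes to -0.42 and 0.57. With all exonic reads of each library as denominators, the counts from the same sites were 139 higher and 325 lower, so the balance of directions depended on the denominator. Of 306 higher genes with 200 shared reads, 163 stayed past 2-fold and 26 changed sign, and of 300 lower genes the numbers were 146 and 30.

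**Figure D2:**
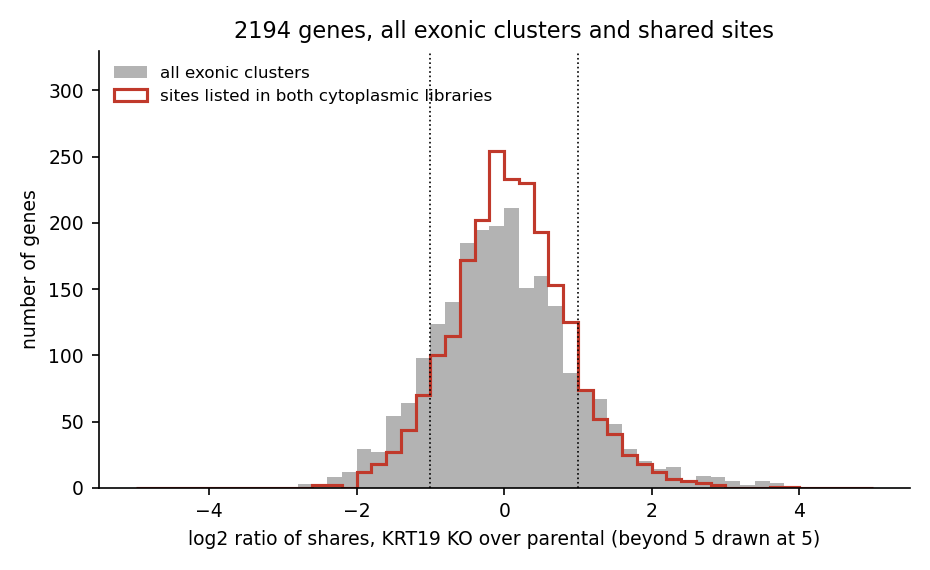
Number of genes by log2 ratio of shares, *KRT19* KO over parental, for 2194 genes, over all exonic clusters (grey) and over sites listed in both cytoplasmic libraries (red line). Dotted lines mark a 2-fold difference. The red line is narrower than the grey bars, with 242 genes above the upper mark and 175 below the lower one.

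Past 2-fold by all 4 counts and also over shared sites were 106 higher and 92 lower genes. None of these counts was divided by all cluster reads, which raises the ratios and left 184 lower genes in place of 485 among the 3037. The genes named from this set were chosen after their values were seen. *PHLDA1*, a pleckstrin homology protein, had 19214 reads in *KRT19* KO and 4715 in parental cytoplasm, with 520 and 348 in the nuclei, and a log2 ratio over shared sites of 1.22 (1.17 to 1.26). All 15 of its sites with at least 50 reads were higher in *KRT19* KO cells, among them 6896 reads against 1808 at the site printed above and 5817 against 2125. *HSPA13*, an HSP70-family protein, had 10173 against 2248 reads and 343 against 14 in the nuclei, and *TIMP3*, a metalloproteinase inhibitor, had 3887 against 722 and 439 against 68. *SCD*, the stearoyl-CoA desaturase, had 2971 against 154 reads and 252 against 37 in the nuclei, with a ratio over shared sites of 2.75 (2.45 to 3.06). All 4 genes were also higher in the *KRT19* KO nuclear library. *BCL2L1*, which encodes the apoptosis regulator BCL-X, had 1682 against 409 reads and 1204 against 111 in the nuclei, and *EEF1A1*, the translation elongation factor, 2413 against 380 and 76 against 54.

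*GCLM*, the modifier subunit of the enzyme that starts glutathione synthesis, was the leading lower gene. It had 5129 reads in *KRT19* KO and 8602 in parental cytoplasm, and 78 and 69 in the nuclei, and its share was 0.148% against 0.451%. Its log2 ratio was -1.61 over all sites and -1.33 (-1.38 to -1.28) over shared sites, and 12 of 13 sites with at least 50 reads were lower. *PRKAR1A*, a regulatory subunit of protein kinase A, had 4598 against 8112 reads and 20 against 154 in the nuclei, and its strongest site had 3964 against 6848. *SLC7A11*, the cystine transporter subunit, had 1608 against 2223 reads and 138 against 140 in the nuclei, a ratio of -1.34 over shared sites. The cytoplasmic difference for *GCLM* and *SLC7A11* had no counterpart of that size in the nuclei, where the log2 ratios were 0.00 and -0.20. These nuclear ratios are of shares of all exonic reads, mitochondrial genes included. *XPOT*, the tRNA exporter, had 2572 against 4524 and 15 against 196, *SLC6A6*, the taurine transporter, 1798 against 3670 and 62 against 753, and *YWHAQ*, another 14-3-3 gene, 2543 against 3486 and 62 against 281. These 3 genes were lower in both fractions. *DDX18*, an RNA helicase, had 1062 against 2611 in the cytoplasm but 170 against 18 in the nuclei.

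**Figure D3:**
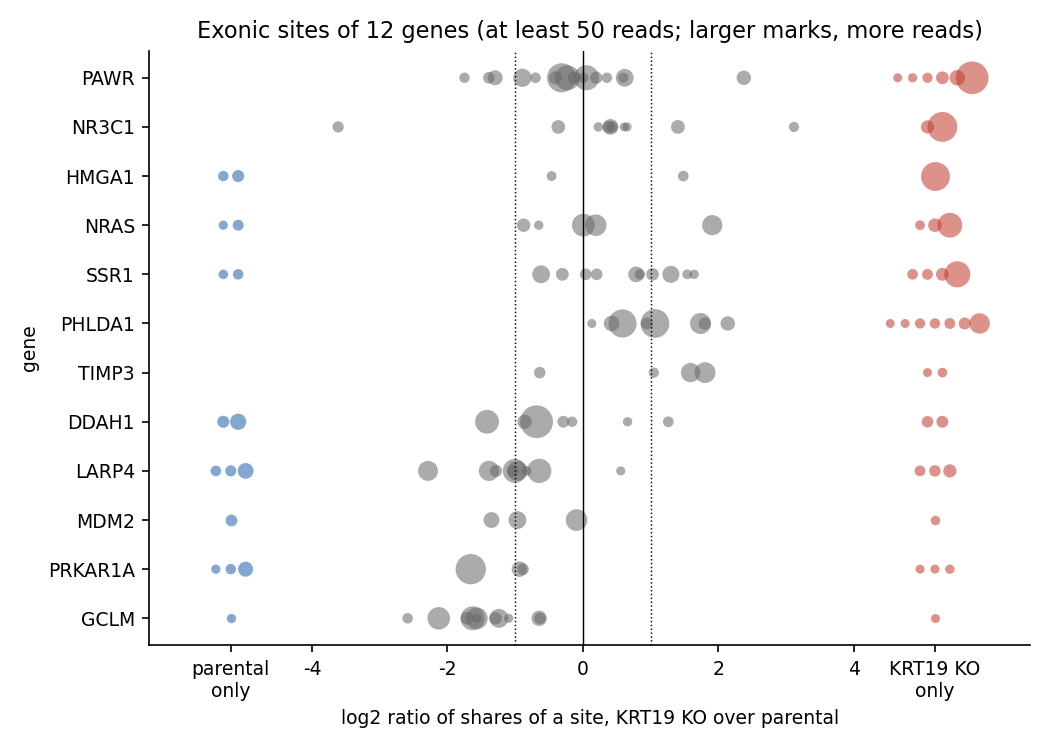
Exonic sites with at least 50 reads in 12 genes chosen after their values were seen, 1 mark per site. Grey marks are placed by the log2 ratio of shares, *KRT19* KO over parental, red marks at the right are sites listed only in *KRT19* KO, blue marks at the left only in parental cytoplasm, and larger marks have more reads. The largest marks of *PAWR*, *NR3C1* and *HMGA1* on the right are single sites, whereas every site of *PHLDA1* lies to the right of 0.

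The strongest site of a gene was the same in both libraries for 57.7% of 2983 genes with a site in each. It was the same for 26.9% of the higher genes, 50.6% of the lower genes and 70.0% of the rest. Among higher genes with at least 3 sites of 50 reads, 84.6% of 1386 sites were above 0, and among lower genes 21.6% of 925 sites were. As these genes were sorted by the sum of the same sites, these values only describe how evenly the sites took part.

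Coding sequences stood apart from 3'UTRs. Coding clusters held 10.5% of exonic reads in *KRT19* KO cytoplasm and 6.61% in parental cytoplasm, and 3'UTR clusters held 84.8% (84.7 to 84.8) and 92.1% (92.1 to 92.2). 5'UTR clusters held 4.73% and 1.25%, and 123973 of the *KRT19* KO reads came from 1 cluster of *MTRNR2L12*, another copy of a mitochondrial rRNA gene. Without mitochondrial genes and these copies, the coding shares were 8.53% and 5.89%, the 3'UTR shares 90.3% and 92.9%, and the 5'UTR shares 1.21% and 1.25%. In the nuclei, coding shares counted in the same way were 21.1% in both lines.

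The coding difference was spread over genes and over shared sites. Of 375 genes with at least 200 coding reads, 149 (39.7%) had at least 2-fold more of the exonic reads in *KRT19* KO cells and 25 (6.67%) less, with a median log2 ratio of 0.75. Of 2696 genes with as many 3'UTR reads, 547 (20.3%) were higher and 472 (17.5%) lower, with a median of -0.01. Over shared sites, 88 (37.6%) of 234 genes were higher in coding clusters and 4 (1.71%) lower, with a median of 0.77, while 187 (9.34%) of 2003 genes were higher in 3'UTR clusters and 181 (9.04%) lower. In 464 genes with at least 100 reads in each class, the coding ratio exceeded the 3'UTR ratio in 298 (64.2%). Divided by all coding reads, mitochondrial genes included, coding clusters gave 99 higher (25.3%) and 69 lower (17.6%) genes of 391 among the 3037. This removes a class difference of 10.5% against 6.61%, which is larger than the 8.53% against 5.89% without mitochondrial genes and copies. The balance of directions thus also depended on this denominator.

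*EIF4G2*, a translation initiation factor, had 5014 *KRT19* KO and 700 parental coding reads in shared sites, a log2 ratio of 2.26, and the site printed above had 4151 and 376. *ZEB2*, a transcriptional repressor of epithelial genes, had 2553 and 770 coding reads in shared sites, also over 2-fold higher as a share. *ANP32B*, a histone chaperone, had 1668 and 318, and *PHLDA1* 2104 and 351. Not all deep coding targets did so. *ATF4*, a transcription factor of the stress response, had 2780 and 1824 coding reads in shared sites, a ratio of 0.03. The 4 lower genes were *NACA*, *SLC38A1*, *ECT2* and *MAT2A*, with log2 ratios from -1.16 to -1.07, and *SLC38A1*, an amino acid transporter, had 577 and 848 reads. The coding genes were chosen after their values were seen.

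C content also differed slightly between the directions. A run of CCC, searched on the RNA strand only, was found in 41.9% of the *KRT19* KO clusters of higher genes and 33.4% of those of lower genes, beside 37.6% over the 3009 genes. In the parental library the shares were 37.6%, 31.5% and 35.1%. C made up 26.6% of the bases of the *KRT19* KO clusters of higher genes and 24.4% of those of lower genes. Coding clusters held 13.7% of the *KRT19* KO reads of higher genes and 5.54% of those of lower genes, so base composition moved together with the class of exon, and the part of either was not tested.

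The nuclear libraries were compared in the same way for 1069 genes with at least 100 nuclear exonic reads. Their cytoplasmic and nuclear log2 ratios had a Pearson correlation of 0.24 and a Spearman correlation of 0.22 across genes. Nuclear shares were taken of all exonic reads, of which mitochondrial genes held 27.6% in *KRT19* KO and 9.92% in parental nuclei. This lowers the nuclear ratio of every other gene by the same amount. Over all 1069 genes the median nuclear ratio was -0.31. It was 0.08 for the 175 genes higher in the cytoplasm, -0.85 for the 171 lower and -0.30 for the 723 in between, and 53.7%, 28.1% and 40.2% of them were above 0. Of genes that passed by all counts and over shared sites, 32 of 40 higher genes were above 0 in the nucleus, with a median of 1.22, and 7 of 51 lower genes were, with a median of -0.99. Fractions of the same cell line were used for both values.

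**Figure D4:**
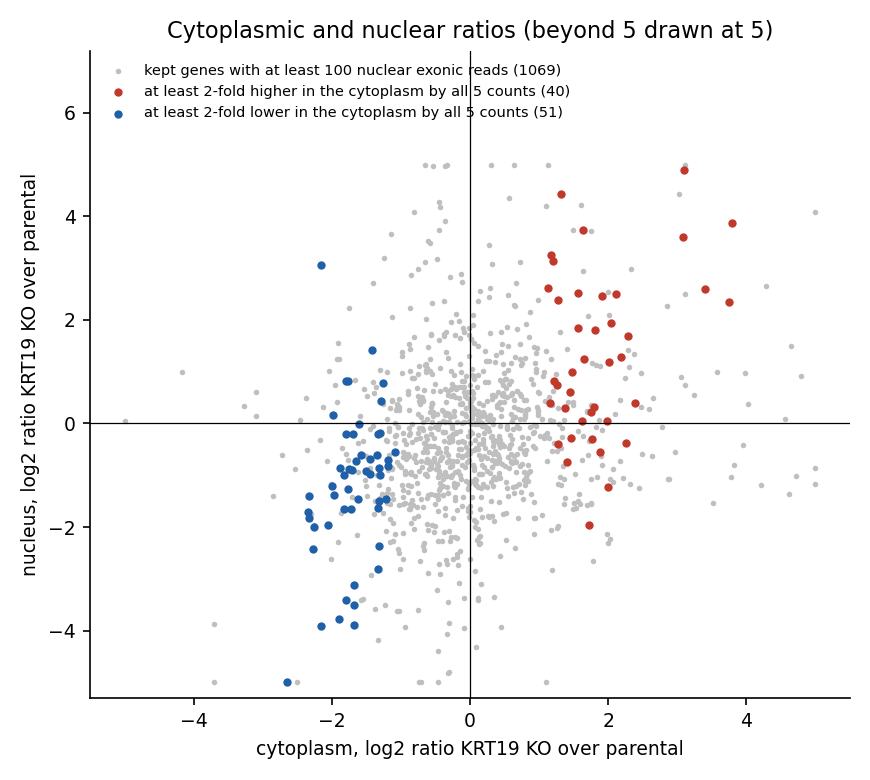
Log2 ratio of exonic shares, *KRT19* KO over parental, in the cytoplasm (x) and the nucleus (y), for 1069 genes with at least 100 nuclear exonic reads. Red and blue points are the 40 higher and 51 lower genes that passed 2-fold in the cytoplasm by all counts and over shared sites. Most red points lie above 0 on the y axis and most blue points below it.

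Of the transcripts that the study names, 3 with at least 200 reads are described here. *MDM2*, a ubiquitin ligase, had 2754 and 2286 reads, and 229 and 371 in the nuclei, a log2 ratio of -0.60 (-0.68 to -0.52). Of its 5 sites with at least 50 reads, 4 were lower and 1 higher. The strongest had 1721 and 1006 reads, a log2 ratio of -0.09. These ratios are of shares of exonic reads, and dividing by all cluster reads raises them. *HNRNPK* itself had 272 and 126 reads (0.24, -0.07 to 0.56) and *EIF4E*, the cap-binding translation factor, 305 and 136 (0.30, 0.00 to 0.60), so their intervals reached or lay close to 0. *MYC* with 167 and 27 reads and *SRC* with 32 and 7 fell under 200 reads.

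Lists of genes with shared functions are described by their counts past 2-fold, to be read beside 21.9% higher and 16% lower over all 3037 genes and a median of 0.04. Counts over shared sites are to be read beside 11% higher and 7.98% lower over the 2194 genes. Chromatin proteins leaned toward *KRT19* KO, with 7 of 21 higher, 1 lower and a median log2 ratio of 0.31. *CBX5*, which encodes the heterochromatin protein HP1α, had 10627 and 2568 reads, *ARID1A*, a chromatin remodeler subunit, 1330 and 238, and *HMGB1* was the lower member, at -1.03. Over shared sites 2 of 20 were higher and 1 lower. Of the translation factors, 7 of 22 were higher and 4 lower. *EIF2S1*, a subunit of the initiation factor eIF2, had 3061 and 495 reads and *EIF4G2* 5536 and 900, while *GSPT1*, a release factor, and *EIF1AX*, an initiation factor, were at -2.14 and -2.16. Over shared sites 3 of 14 were higher and 0 lower. Of the SR splicing factors, 5 of 11 were higher and 2 lower, 1 of the latter being *SRSF10* in a stretch listed by the parental library alone, and over shared sites 1 of 9 was higher and 0 lower.

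Matrix and adhesion genes leaned the other way, with 2 of 18 higher, 7 lower and a median of -0.67, and all 9 passed by all 4 counts. The lower members included the integrin subunits *ITGA6*, with 237 and 718 reads, and *ITGA2*, with 159 and 417, the caveolar protein gene *CAV1*, with 1280 and 2000, and *NT5E*, with 1430 and 2632. For *NT5E* 1974 and for *CAV1* 904 of the parental reads lay in 1 site that the *KRT19* KO cytoplasmic library did not list. *TIMP3* and *SDC4* were the higher members. For the 12 members with 200 reads in shared sites, the median was -0.33 over all sites and -0.04 over shared sites, where 1 was higher and 1 lower. Of the actin and tubulin genes, 3 of 18 were higher and 5 lower, and over shared sites 4 of 14 were higher and 3 lower. *ACTR2*, an Arp2/3 complex subunit, had 1486 and 2881 reads, and *IQGAP1*, a scaffold protein, 547 and 33. For *IQGAP1*, 451 of the *KRT19* KO reads lay in 1 site that the parental cytoplasmic library did not list. Among 7 intermediate filament and linker genes, *DSP*, the desmosomal desmoplakin, had 957 and 61 reads, and *LMNA*, the A-type lamin, 413 and 725. Over shared sites 0 of 4 genes of this list were higher and 1 lower.

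In the MAP kinase and RAS pathway, 9 of 31 genes were higher and 5 lower, with a median of -0.01. *NRAS*, a RAS GTPase, had 11287 and 2715 reads and was 0.67 over shared sites. *MAP2K1*, the kinase MEK1, had 926 and 31 reads, of which 15 and 15 lay in shared sites. *MET*, the hepatocyte growth factor receptor, and *PIK3CA*, a PI3-kinase subunit, were at -1.39 and -1.15. Over shared sites 1 of 24 members was higher and 0 lower. Of the microRNA and mRNA decay genes, 6 of 22 were higher and 4 lower, the latter led by *IGF2BP3* at -2.01. Over shared sites 2 of 17 of these were higher and 1 lower.

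The remaining lists are given by their counts. Of the hnRNP and PCBP genes, 4 of 19 were higher and 4 lower, with *TARDBP* at 208 and 10 reads and *PCBP2* at -1.58. Over shared sites 0 of 17 were higher and 1 lower. Of 25 E2F target and cell cycle genes, 3 were higher and 1 lower, and of 31 genes of the endoplasmic reticulum and secretory pathway 5 and 4. Over shared sites these counts were 1 and 1 of 21 genes, and 2 and 1 of 23. Of 17 Hippo pathway genes 3 were higher and 1 lower, and of 13 cytosolic chaperones 0 and 3. Over shared sites the Hippo counts were 0 and 1 of 12 genes, and the chaperone counts were 2 and 0 of 10. The chaperone median over shared sites was still lower, -0.23 beside 0.07 over the 2194 genes. The ribosomal protein list kept 5 of 79 genes, with 1 higher and 2 lower, and the glycolysis list 6, with 1 and 1. Of 6 nuclear genes of the respiratory chain 3 were higher and 2 lower, and of 9 proteasome genes 3 and 2. Over shared sites, 1 of 2 ribosomal protein genes was higher and 1 lower, and of 3 glycolysis genes 1 and 0. Of 5 respiratory chain genes 2 and 0 were, and of 6 proteasome genes 0 and 1.

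**Figure D5:**
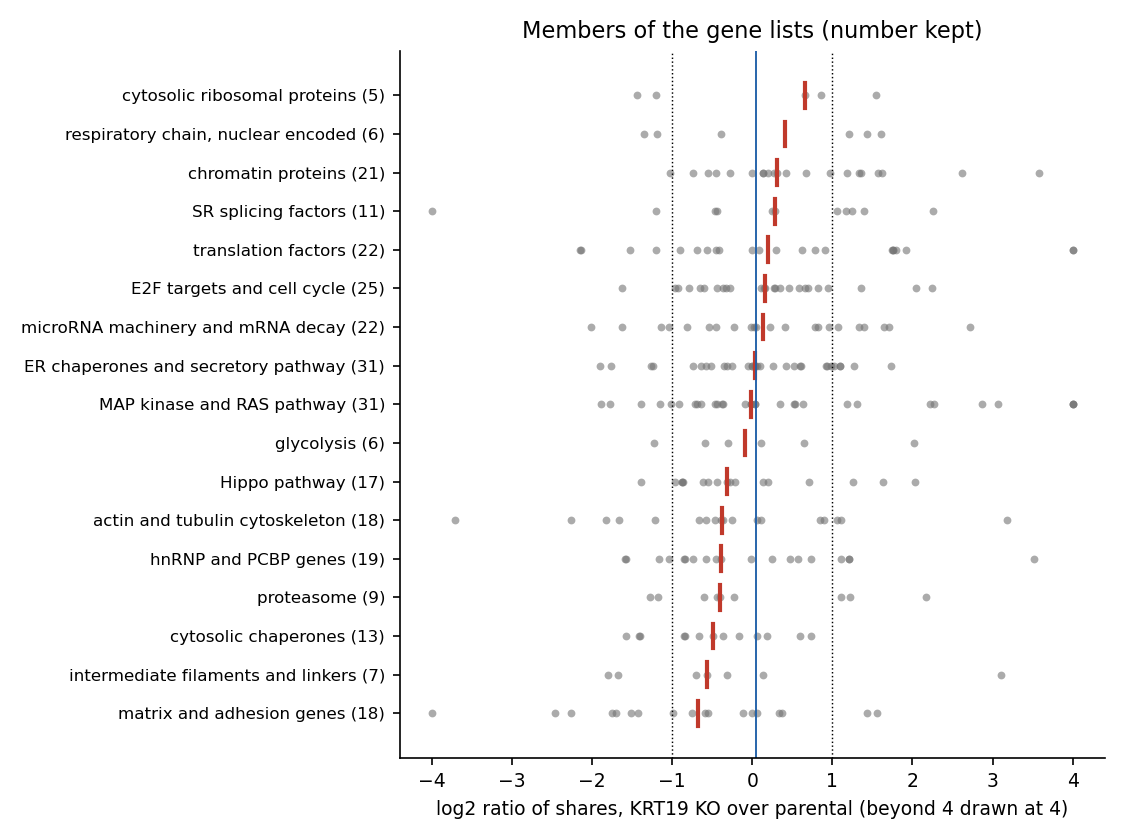
Log2 ratio of exonic shares, *KRT19* KO over parental, for the kept members of 17 gene lists, 1 grey point per gene, with the number kept beside the list name. Red bars mark list medians, the blue line the median of all 3037 genes (0.04) and dotted lines a 2-fold difference. Matrix and adhesion genes have a median of -0.67 and chromatin proteins of 0.31.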

How the data were processed

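According to the study's methods, the authors demultiplexed reads with bcl2fastq 2.20.0 and cutadapt, collapsed reads with molecular identifiers, mapped them to hg19 and called clusters with PARalyzer in PARpipe. The submitters' processing notes also name tools of the RNA-seq part, which was not analysed here. The authors deposited, per cluster and library, raw counts of reads, unique reads and reads with T-to-C changes, with position, sequence, annotation class and gene, without normalization. Depth was 5551612 to 6216226 cluster reads in the cytoplasmic and 3252800 to 3537577 in the nuclear libraries, which bounds the intervals given.

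From these, exonic counts per gene, shares, log2 ratios and 95% exact (Clopper-Pearson) intervals were computed with Python 3.11.15, pandas 2.3.3, numpy 2.4.6 and scipy 1.17.1, and figures were drawn with matplotlib 3.10.9. The interval was checked on simulated data. Genes with no exonic cluster in 1 library were entered at 3 reads when genes past 2-fold were counted. Sites were runs of overlapping exonic clusters on 1 strand.

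Genes and lists were chosen with earlier results of these data known. Named were the 10 genes with the highest and lowest interval bounds, the 5 with the largest gain and loss of share, the 5 largest shares per library, the study's transcripts, the extremes of each list, genes with no exonic cluster in 1 library and genes at the 200-read threshold. Others are named as chosen after their values were seen. A few further genes that this rule covers are not reported here. Alternatives were other read counts, minimums, denominators, exon classes and leaving out the strongest clusters.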

Additional observations from a re-analysis of the deposited data

Results flagged for a closer look

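In data outside the comparisons above, 5195 clusters lay in stretches of the genome where only the parental cytoplasmic library listed clusters. On unplaced contigs the *KRT19* KO cytoplasmic library listed 232 clusters and the nuclear libraries 221 and 269, whereas the parental cytoplasmic library listed 0. *MTRNR2L12*, which has no cluster in the *KRT19* KO nuclear library and was therefore not kept, had 124045 exonic reads in *KRT19* KO cytoplasm, 17 in parental cytoplasm and 8387 in the parental nucleus.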

How the results depend on the processing

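No paired analysis was possible because each condition had 1 library. For the same reason no replicate could be left out. Against 666 higher and 485 lower genes, unique reads gave 394 and 258, T-to-C reads 432 and 309, a minimum of 500 reads 360 and 260, all cluster reads as denominator 1244 and 184, coding clusters 99 and 69, leaving out each gene's strongest cluster 440 and 270, and sites in both libraries, chosen after seeing the data, 242 and 177. Fewer genes were measured under all of these except the denominator, so the percentages of genes measured moved less than most counts. Against 21.9% higher and 16% lower, they were 19.6% and 12.9% by unique reads and 18.3% and 13.1% by T-to-C reads. With a minimum of 500 reads they were 18.9% and 13.6%, over coding clusters 25.3% and 17.6%, and without the strongest cluster 24.5% and 15.02%. Over sites in both libraries they fell to 10.98% and 8.03%. Other settings kept both counts within 1.5 times. Shifts of the median were judged by a margin taken from the median width of single-gene intervals, which is not a spread of the median. By it the median of 0.04 moved only with all cluster reads as denominator, to 0.75. The median was 0.18 without the strongest cluster of each gene and 0.13 with a denominator without the 10 deepest genes. The difference of 3'UTR shares, *KRT19* KO minus parental, was -7.37 percentage points, and it was -6.48 by unique reads, -6.95 by T-to-C reads, -7.86 with clusters of at least 10 reads and -2.61 without mitochondrial genes and copies, the last chosen after seeing the data.

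Of 1243 values of named genes, 629 moved little, 577 moved and 37 were counted as changes of sign, the cause of which was not tested. A change of sign was counted only for genes at least 2-fold higher or lower as reported. Genes under 2-fold could also change sign without being counted among the 37. Without the strongest cluster, *NUCKS1* went from 0.19 to -0.40 and *EIF4E* from 0.30 to -0.47. Among the genes at least 2-fold higher or lower as reported, the log2 ratio changed sign over 3'UTR clusters for *HMGA1* (-3.03) and *ZNF714* (-0.43). Over coding clusters it did so for *ANKRD1* (1.64), *C9orf64* (0.20), *CDC25A* (-0.21), *COPA* (0.051), *FERMT2* (-1.31), *HIST1H2BD* (-2.27), *HMGCS1* (-2.27), *HSPA13* (-0.66), *LARP4* (3.26), *PFKFB3* (-0.80), *PLAGL2* (-0.80), *PSMC2* (0.97), *PSMC4* (-0.16), *RACGAP1* (-3.65), *RPL28* (-0.70), *RPS23* (1.34), *SMC3* (-2.23), *SRSF6* (-0.12), *SSR1* (-0.80), *TPP1* (-2.40), *XPOT* (2.31) and *ZNF585B* (-1.80). Without the strongest cluster it did so for *CYC1* (-0.85), *HIST1H2BD* (-0.23), *HMGA1* (-1.08), *RACGAP1* (-3.17), *SMC3* (-0.85) and *SUN1* (0.31), and over sites in both libraries for *CCNG1* (-0.037), *CSNK1G3* (0.17), *DIDO1* (-0.22), *PFKFB3* (-0.23), *SMC3* (-1.07), *SRSF6* (-0.28) and *TARDBP* (-0.32). A gene under 300 reads had an interval about 0.82 wide, and clusters under 5 reads were not listed.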

Other observations

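Sites that both cytoplasmic libraries list and that hold at least 1000 reads together numbered 790. Of these, 44 were at least 2-fold higher in *KRT19* KO cells and 158 were at least 2-fold lower, as shares of the exonic reads of each library. Shared sites held 71.9% of the *KRT19* KO reads and 85.7% of the parental reads, so this denominator lowers their ratios. Gene counts over shared sites were 139 higher and 325 lower by it, and 242 and 175 as shares of the reads in shared sites.

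Of the 200 genes with at least 200 exonic reads that lacked a cluster in at least 1 nuclear library, 51 were at least 2-fold higher and 69 lower in *KRT19* KO cytoplasm, and 55 had parental reads in stretches listed by the parental cytoplasmic library alone.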
